A study of Mus musculus with 37 samples.

Results

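Taok2, the thousand-and-one-amino-acid kinase 2 gene of the mouse 16p11.2-syntenic interval, was examined with its paralogs Taok1 and Taok3 and with 6 kinases of the ERK, p38 and JNK chains: Map2k1, Map2k2, Map2k3, Map2k6, Mapk8 and Mapk14. Members were probe sets carrying one of these symbols alone, and the probe set with the highest mean stood for its gene. All 9 members were measured, among 19938 genes with a single symbol. The mice were df/+, which carry an engineered deletion of the interval and have 1 copy of it, dp/+, which carry the reciprocal duplication and have 3 copies, and +/+, which have 2 copies. All were male first-generation hybrids of C57BL/6N and 129Sv, and their ages are not given in the sources used here. RNA from 4 brain regions (cortex, cerebellum, brain stem and olfactory bulb) of 2 df/+, 3 dp/+ and 3 +/+ mice was hybridised to 37 Affymetrix arrays, which gave 31 region samples because 6 samples had 2 arrays and the cortex of dp/+ mouse 3 was not among them. Mapk3, the ERK1 gene, is not analysed here.

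MAP kinase chains pass a signal down a row of kinases, each of which phosphorylates and activates the next. TAO kinases stand at the top of such a row: they activate Map2k3 and Map2k6, which in turn activate p38 kinases such as Mapk14, and they are also known to stimulate the JNK kinases, of which Mapk8 is one. Map2k1 and Map2k2 belong to the ERK branch. In neurons Taok2 is known for its part in the growth of basal dendrites and of axons. Chain activity is set by phosphorylation, which an mRNA array does not measure. In these bulk tissues, fewer cells that use a gene and less RNA per cell cannot be told apart.

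Of the 9 genes, Taok2 alone lies in the interval, and its RefSeq start on GRCm38.p6 is in the window chr7:126884918-126885217, minus strand. The sequences below, each from 250 bases before to 50 bases after the start, show the start of the gene whose copy number was changed, the starts of its paralogs, which were not, and that of Map2k2, which shares a short core with Taok2. The other windows are chr11:77607766-77608065 on the minus strand for Taok1, chr5:117119879-117120178 on the plus strand for Taok3 and chr10:81105665-81105964 on the plus strand for Map2k2. Capitals mark the letters GCATGCGC, the core of the NRF1 motif, and TCGCGAGA, another core of housekeeping promoters, on either strand, and where the core meets its own reverse complement the overlapping run is in capitals.
Taok2: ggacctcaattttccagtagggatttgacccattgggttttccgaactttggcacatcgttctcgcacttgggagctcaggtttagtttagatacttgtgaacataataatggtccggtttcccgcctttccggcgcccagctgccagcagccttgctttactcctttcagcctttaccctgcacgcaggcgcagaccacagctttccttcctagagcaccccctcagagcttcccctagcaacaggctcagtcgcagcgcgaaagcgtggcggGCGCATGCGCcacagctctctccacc
Taok1: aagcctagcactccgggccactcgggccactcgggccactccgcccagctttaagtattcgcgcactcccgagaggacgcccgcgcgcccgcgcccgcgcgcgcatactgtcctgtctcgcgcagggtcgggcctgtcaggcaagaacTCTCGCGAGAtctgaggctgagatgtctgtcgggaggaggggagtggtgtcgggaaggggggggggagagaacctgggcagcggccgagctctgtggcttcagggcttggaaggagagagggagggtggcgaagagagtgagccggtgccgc
Taok3: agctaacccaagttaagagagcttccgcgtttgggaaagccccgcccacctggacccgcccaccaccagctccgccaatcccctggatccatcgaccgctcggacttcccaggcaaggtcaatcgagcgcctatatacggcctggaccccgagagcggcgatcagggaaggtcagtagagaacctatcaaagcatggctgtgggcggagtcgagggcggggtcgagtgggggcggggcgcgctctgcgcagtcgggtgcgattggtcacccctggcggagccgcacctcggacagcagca
Map2k2: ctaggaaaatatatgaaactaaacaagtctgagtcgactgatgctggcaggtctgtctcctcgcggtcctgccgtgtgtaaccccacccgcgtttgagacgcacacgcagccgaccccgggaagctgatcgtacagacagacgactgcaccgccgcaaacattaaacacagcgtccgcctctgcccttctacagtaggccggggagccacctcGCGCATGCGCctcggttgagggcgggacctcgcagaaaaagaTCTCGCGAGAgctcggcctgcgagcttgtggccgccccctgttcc
GCATGCGC or its complement stood in 2.71% of all 32851 promoter windows in the table and in those of 2 of the 9 members, Taok2 and Map2k2. TCGCGAGA stood in 0.995% of all windows and in those of 3 members, Taok1, Map2k2 and Mapk14. The window of Taok3 held neither and had 5 GC boxes (GGGCGG), a motif of 35.7% of all windows, while that of Taok2 had no GC box. The cores were picked after the members' windows were read, and a match is a description of letters, not a binding site.

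Taok2 followed copy number in all 4 regions. Its log2 signal in the olfactory bulb was 9.41 and 9.41 in df/+ mice and 10.76, 10.75 and 10.80 in dp/+ mice, against 9.73, 10.44 and 10.39 in +/+ mice. In the cortex it was 9.63 and 9.57 in df/+ mice and 10.76 and 10.82 in dp/+ mice, against 10.42, 10.30 and 10.30 in +/+ mice. All df/+ samples lay below and all dp/+ samples above the +/+ samples of their region. The cerebellum gave 9.43 and 9.36 in df/+ mice and 10.48, 10.50 and 10.53 in dp/+ mice, against 10.26, 10.26 and 10.22 in +/+ mice. The brain stem gave 9.56 and 9.67 in df/+ mice and 10.86, 10.84 and 10.92 in dp/+ mice, against 10.27, 10.42 and 10.46 in +/+ mice. The 3 genotypes did not overlap there either. The low sample was the olfactory bulb of +/+ mouse 1, at 9.73, whose 2 arrays differed by 0.29 on the log2 scale, where the 6 pairs of arrays of 1 sample had a median difference of 0.10 for Taok2.

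**Figure D1:**
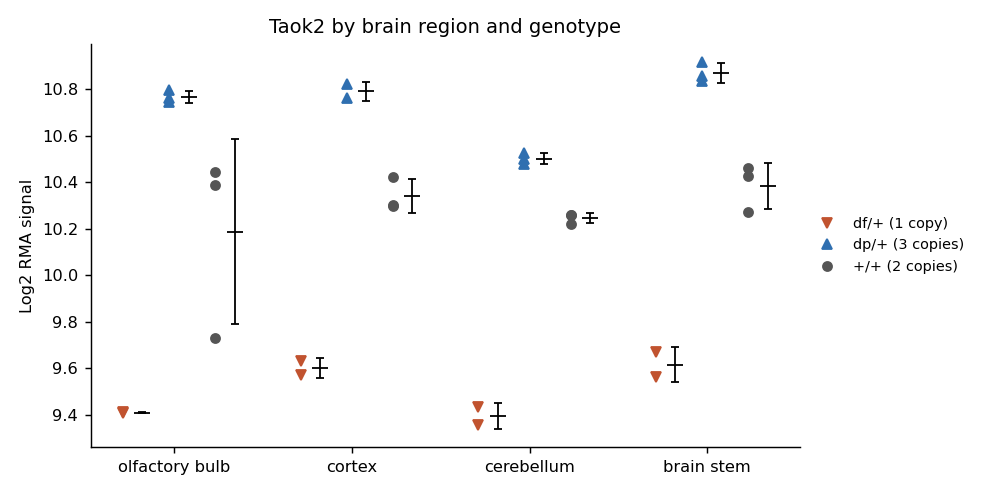
Log2 RMA signal of Taok2 (y axis) in each brain region (x axis), with 1 point per mouse and the mean ± SD as black bars beside the df/+, dp/+ and +/+ points. The df/+ points lie below the +/+ points and the dp/+ points above them in each region, and the olfactory bulb of +/+ mouse 1, at 9.73, stands apart from the other +/+ samples.

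For tests, the mouse was the unit. Each mouse's value was its mean, over its regions, of log2 signal minus the +/+ mean of the region. For Taok2 these values were -0.78 and -0.79 in df/+ mice and 0.42, 0.44 and 0.47 in dp/+ mice, against -0.12, 0.07 and 0.05 in +/+ mice. Taok2 fell to 58.0% of the +/+ level in df/+ mice (log2 difference -0.79 ± 0.07 SE, 95% interval -0.93 to -0.64, limma adjusted p = 0.000236, 2 against 3 mice). It rose to 136% of the +/+ level in dp/+ mice (log2 difference 0.44 ± 0.06 SE, 95% interval 0.32 to 0.57, limma adjusted p = 0.00995, 3 against 3 mice). Of all genes tested, 0.115% passed in df/+ mice and 1.86% in dp/+ mice, and Taok2 was the only member to pass in either. A level proportional to copies would be 50% with 1 copy and 150% with 3.

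Over the 3 copy numbers, the slope of Taok2 log2 signal on log2 copies was 0.78 ± 0.04 SE (95% interval 0.69 to 0.87, limma adjusted p = 4.35e-06, 8 mice), where 1 would be proportional. The interval lies below 1. This holds for array signal, and how that signal scales with the amount of mRNA was not tested. Taok2 was 1 of 9 members to pass for this slope, beside 0.11% of all genes. The slope from 1 to 2 copies exceeded that from 2 to 3 copies by 0.026 (95% interval -0.28 to 0.34, limma adjusted p = 0.934), a difference that changed sign in 4 alternatives and passed in none. For that difference in slope 0.0652% of all genes passed, and 0 of 9 members did, though 2, Map2k6 and Mapk8, had an unadjusted p under 0.05.

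Within regions, the slope of Taok2 was 0.86 ± 0.08 (olfactory bulb), 0.75 ± 0.09 (cortex), 0.70 ± 0.08 (cerebellum) and 0.79 ± 0.08 (brain stem), each with its SE, in a fit of 31 samples that treated mouse as a random block. Each passed, with limma adjusted p of 2.41e-08, 4.44e-06, 1.72e-06 and 1.59e-07 in that order. Taok2 was the only member to pass in each region, beside 0.246%, 0.0953%, 0.115% and 0.12% of all genes in the same order. The difference between the 4 slopes did not pass (limma F test, unadjusted p = 0.525, adjusted p = 1). For that F test 0 of 9 members passed, 0 had an unadjusted p under 0.05, and 0.0502% of all genes passed.

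Contrasts of each genotype with +/+ inside each region were added after the values were seen. In df/+ mice Taok2 stood at 58.3% of the +/+ olfactory bulb level, 59.8% of that of cortex, 55.4% of that of cerebellum and 58.6% of that of brain stem. All 4 passed, with limma adjusted p of 0.00115, 0.00619, 0.000616 and 0.00195 in that order, and no other member did, beside 0.291%, 0.1%, 0.0702% and 0.211% of all genes. With either df/+ mouse left out, the other stands alone and is assumed to vary like the other groups, which give the spread. The call was then lost in the olfactory bulb (adjusted p up to 0.0962), cortex (up to 0.517) and brain stem (up to 0.0820), not in the cerebellum (at most 0.0430). The differences stayed about as large, at -0.78 and -0.78 in the olfactory bulb, -0.77 and -0.71 for cortex and -0.72 and -0.82 for brain stem. In dp/+ mice Taok2 stood at 149.5% of the +/+ olfactory bulb level, 137% of that of cortex, 119% of that of cerebellum and 139.8% of that of brain stem.

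The rise in dp/+ mice passed in the olfactory bulb (log2 difference 0.58 ± 0.11 SE, limma adjusted p = 0.00909), beside 2.27% of all genes. It did not pass for cortex (0.46 ± 0.12, adjusted p = 0.144), cerebellum (0.26 ± 0.11, adjusted p = 0.134) or brain stem (0.48 ± 0.11, adjusted p = 0.261), where 0%, 5.54% and 0.015% of all genes passed. In the cortex 3143 genes had an unadjusted p under 0.05. Without the low olfactory bulb sample of +/+ mouse 1, the dp/+ difference was 0.35 in the olfactory bulb (adjusted p = 0.0311) and 0.45, 0.26 and 0.48 in the cortex, cerebellum and brain stem (adjusted p = 0.0312, 0.0244 and 0.00173). All 4 passed, but the sample was picked for its low Taok2 value. Outside the olfactory bulb the differences themselves hardly changed, so these calls are not separate support for a rise there. Without all samples of +/+ mouse 1, the cortex, cerebellum and brain stem differences were 0.50, 0.26 and 0.43 (adjusted p = 0.0147, 0.0409 and 0.0180). The df/+ difference in the olfactory bulb was -1.01 without the low sample. The smaller rise in the cerebellum was not shown to differ from that in other regions (limma F test of the dp/+ differences, unadjusted p = 0.189, adjusted p = 0.517). For the F test over regions 0 of 9 members passed in df/+ mice and 0 in dp/+ mice, beside 0.0602% and 0.211% of all genes, and Map2k6 had an unadjusted p under 0.05 in both.

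The paralogs of Taok2 have 2 copies in all mice and had no slope on the interval's copy number that passed. Taok1, which also feeds the p38 branch, had a slope of -0.08 ± 0.06 (95% interval -0.20 to 0.05, limma adjusted p = 0.755). Its values per mouse were 0.05 and 0.14 in df/+ mice and -0.15, -0.11 and 0.19 in dp/+ mice, against -0.06, 0.03 and 0.03 in +/+ mice. Both df/+ mice lay above the +/+ mice, by 0.09 on average (adjusted p = 0.907), and dp/+ mouse 3 stood above the other dp/+ mice. The other probe set of Taok1 gave a slope of 0.04 and a df/+ difference of -0.09, so the probe sets differed in sign and neither passed. Taok3, the paralog with a known part in immune cells, had a slope of -0.01 ± 0.04 (95% interval -0.10 to 0.07, adjusted p = 0.934), and its groups overlapped in every region.

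**Figure D2:**
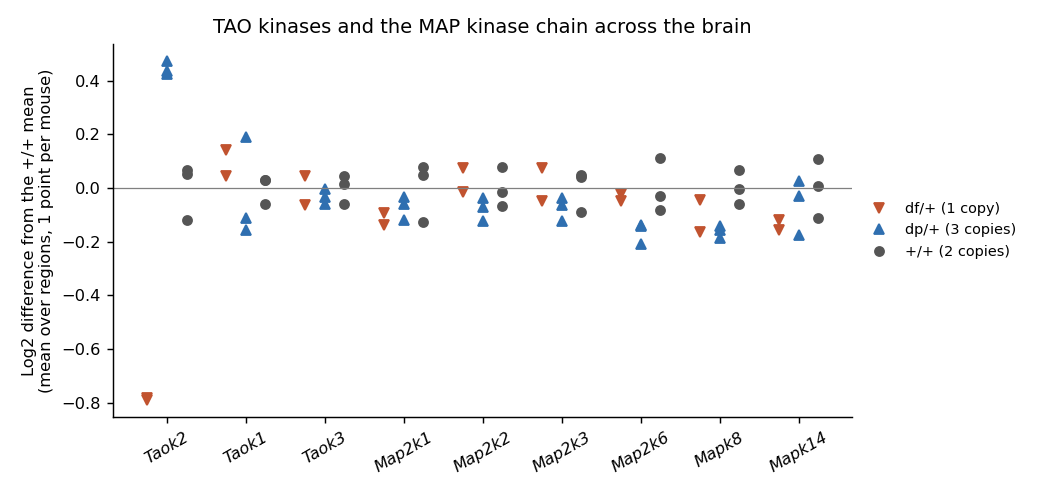
Log2 difference from the +/+ mean, averaged over regions (y axis), for the 9 members (x axis), with 1 point for each df/+, dp/+ and +/+ mouse. The Taok2 points of df/+ mice lie at -0.78 and -0.79 and those of dp/+ mice at 0.42 to 0.47, and the points of the other 8 genes lie between -0.21 and 0.19.

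In the ERK branch, Map2k1 had a slope of 0.03 ± 0.05 (95% interval -0.07 to 0.14) and Map2k2 one of -0.07 ± 0.04 (-0.16 to 0.02). Map2k1 stood at 92.3% of the +/+ level in df/+ mice and 95.2% in dp/+ mice, and Map2k2 at 102% and 94.8%. All mutant groups of both genes overlapped the +/+ mice across the brain. In the olfactory bulb, Map2k2 was at 9.08 and 9.13 in df/+ mice and 8.99, 9.13 and 8.98 in dp/+ mice, against 9.48, 9.18 and 9.20 in +/+ mice. Both mutant genotypes lay below the +/+ samples there, and neither contrast passed.

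In the p38 branch, Map2k3 had a slope of -0.05 ± 0.04 (95% interval -0.15 to 0.04), Map2k6 one of -0.08 ± 0.05 (-0.18 to 0.03) and Mapk14 one of 0.05 ± 0.05 (-0.06 to 0.17). Mapk14, the p38 alpha gene, had per-mouse values of -0.12 and -0.16 in df/+ mice and 0.03, -0.03 and -0.17 in dp/+ mice, against -0.11, 0.11 and 0.01 in +/+ mice. The df/+ mice lay below all +/+ mice by a small margin, at 90.9% of the +/+ level (adjusted p = 0.802). By region, the Mapk14 samples of both mutant genotypes lay below all +/+ samples in cortex and cerebellum and overlapped them elsewhere. In cortex and cerebellum they stood at 81.4% and 91.2% in df/+ mice and 95.1% and 87.3% in dp/+ mice. None of these differences passed. The lowest, df/+ in cortex, had an unadjusted limma p of 0.0160 and an adjusted p of 0.714. Map2k6 had per-mouse values of -0.02 and -0.05 in df/+ mice and -0.14, -0.21 and -0.14 in dp/+ mice, against -0.03, 0.11 and -0.08 in +/+ mice. All dp/+ mice lay below all +/+ mice, at 89.3% of the +/+ level (log2 difference -0.16 ± 0.06 SE, unadjusted p = 0.0169, limma adjusted p = 0.139). Mapk8, the JNK1 gene, had values of -0.04 and -0.16 in df/+ mice and -0.16, -0.14 and -0.18 in dp/+ mice, against -0.06, -0.01 and 0.07 in +/+ mice. It too was below in every dp/+ mouse, at 89.4% of the +/+ level (-0.16 ± 0.06, unadjusted p = 0.0130, limma adjusted p = 0.124), and its slope over the copy numbers was -0.03 ± 0.05.

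Neither dp/+ difference passed. With limma array weights, which here weighted each mouse by how closely its values over all genes followed the fit, that of Mapk8 was -0.18. Its limma adjusted p was then 0.0378. Counting Taok2, 3 of 9 members had dp/+ mice all to one side of the +/+ mice, beside 27.9% of all genes, and 3 of 9 had df/+ mice to one side, beside 20.3%. These shares are near those of all genes. On dp/+ arrays the dimmer genes were higher and the brighter genes lower than on +/+ arrays: in the brightness decile of Map2k6 the median gene differed by -0.08 and in that of Mapk8 by -0.03. For the 4 measured of 5 cortex marker genes, each mouse's mean difference, averaged over all its regions, was -0.28 to -0.19 in df/+ mice. It was -0.41 to -0.12 in dp/+ mice, against -0.16 to 0.18 in +/+ mice. Tbr1 and Neurod6 were at -0.47 each in df/+ mice, where Cux2 and Neurod2 were at 0.02 and -0.01. In dp/+ mice these genes were at -0.50, -0.42, -0.08 and -0.18 in that order. Among other marker lists, dp/+ mice were at 0.04 to 0.17 for endothelium and 0.02 to 0.11 for brain stem. They were at -0.15 to -0.02 for oligodendrocytes and -0.05 to -0.02 for neurons. The +/+ mice were at -0.07 to 0.06, -0.03 to 0.02, -0.06 to 0.08 and -0.03 to 0.03 for these in the same order. Of the endothelium genes in dp/+ mice, Cldn5 was at 0.37, and Pecam1, Flt1 and Cdh5 were at -0.03, 0.05 and 0.05. Of the brain stem genes, Slc6a5 was at -0.01, and Hoxb5, Hoxa5 and Chat were at 0.09, 0.06 and 0.13. The part of brightness and of marker levels in the values of Map2k6 and Mapk8 was not tested.

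**Figure D3:**
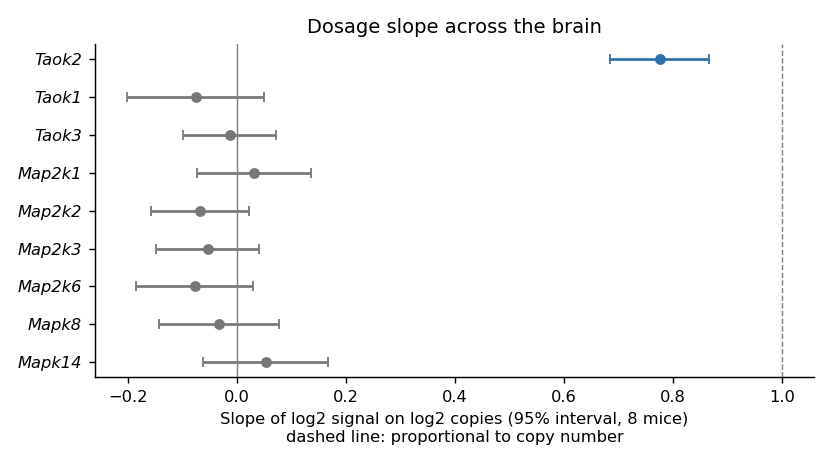
Slope of log2 signal on log2 copies across the brain (x axis, points with 95% intervals, 8 mice) for the 9 members (y axis), with a solid line at 0 and a dashed line at 1. The interval of Taok2, 0.69 to 0.87, lies between the lines, and those of the other 8 genes include 0.

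The Map2k6 difference was widest in the cerebellum. There its log2 signal was 9.06 and 8.90 in df/+ mice and 8.82, 8.81 and 8.88 in dp/+ mice, against 9.20, 9.21 and 9.17 in +/+ mice. All samples of both mutant genotypes lay below the +/+ samples, the dp/+ samples at 78.1% of the +/+ level (-0.36 ± 0.09 SE, limma adjusted p = 0.0270), in the region where 5.54% of all genes passed. That call was lost with cyclic loess (-0.26, adjusted p = 0.0770), with quantile normalisation within regions (-0.24, adjusted p = 0.0914) and without any single one of +/+ mice 1, 2 and 3 and dp/+ mice 1 and 2 (adjusted p = 0.0528, 0.103, 0.0505, 0.144 and 0.0564). The difference without 1 of these 5 mice stayed between -0.37 and -0.34. In the brain stem, Mapk8 was at 10.96 and 10.90 in df/+ mice and 10.85, 10.61 and 10.82 in dp/+ mice, against 11.14, 10.91 and 11.02 in +/+ mice. In the cortex it was at 11.225 and 11.19 in df/+ mice and 11.24 and 11.20 in dp/+ mice, against 11.34, 11.51 and 11.39 in +/+ mice. The dp/+ samples lay below the +/+ samples in both regions. The df/+ samples lay below them in the cortex and overlapped them in the brain stem. None of these differences passed. Over the 8 members other than Taok2, 4 regions and both mutant genotypes, 46 of 64 comparisons overlapped the +/+ samples, 15 lay wholly below and 3 wholly above. Over all genes, 13% of such comparisons lay wholly below and 10.9% wholly above. The members share mice and arrays, so their 64 comparisons are not independent and this is a description.

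**Figure D4:**
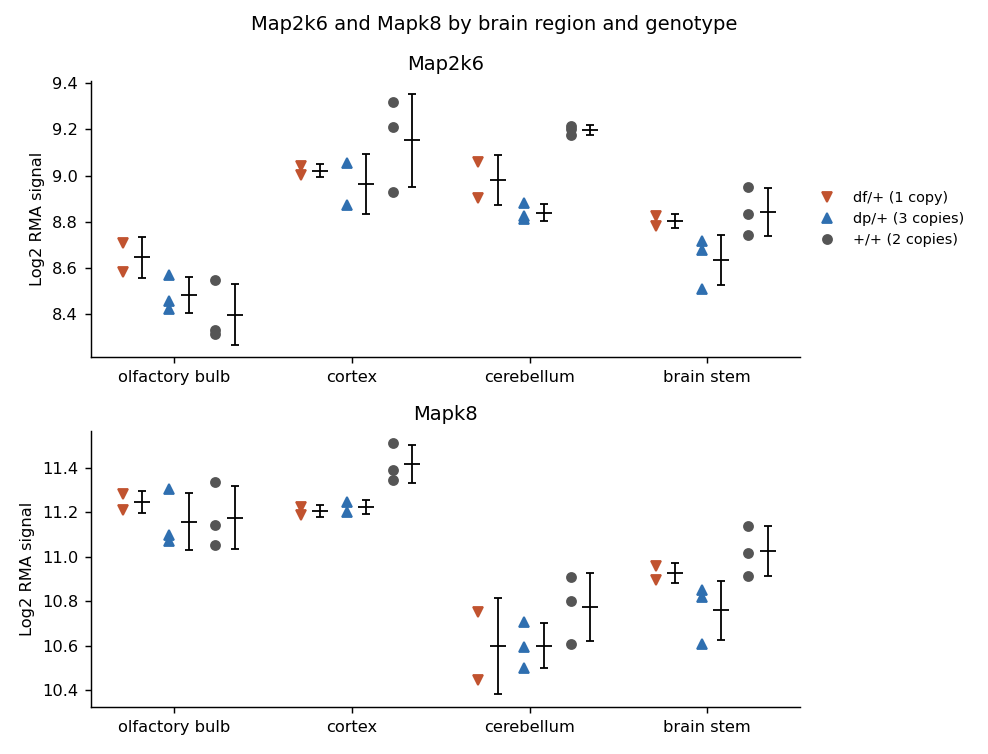
Log2 RMA signal of Map2k6 (upper panel) and Mapk8 (lower panel) on the y axis in each brain region (x axis), with 1 point per mouse and the mean ± SD as black bars beside the df/+, dp/+ and +/+ points. The cerebellar Map2k6 samples of dp/+ mice, at 8.81 to 8.88, lie below the +/+ samples at 9.17 to 9.21, and in the olfactory bulb the dp/+ and +/+ groups overlap for both genes.

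The difference between Taok2 and each other member was tested within mice. The slope of Taok2 minus that of the other gene was 0.72 against Mapk14, the smallest, and 0.85 against Map2k6, the largest. Each of the 8 differences had p = 0.00179 in an exact two-sided permutation test that ran through all 560 ways of giving the genotypes to the mice. That is the smallest p that the test can give, and the value adjusted over the 8 tests is the same. Taok2 alone gave the same p in this test, so the 8 results largely repeat its own slope and cannot rank the other members.

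Levels of 6 of the 9 members differed between regions of the +/+ mice (limma F test with the mouse as a block), where 58% of all genes did. Map2k1 was at 11.97, 11.73 and 11.61 in the olfactory bulb of the 3 +/+ mice, 11.39, 11.36 and 11.08 in cortex, 10.76, 10.89 and 10.54 in brain stem and 10.45, 10.49 and 10.53 in cerebellum. It was 2.42-fold higher in the olfactory bulb than in the cerebellum (adjusted p = 2.49e-08) and 1.41-fold higher than in the cortex (adjusted p = 0.000992), while the 3 brain stem samples lay above the 3 cerebellum samples by a difference that did not pass (1.18-fold, adjusted p = 0.0722). Mapk8 followed the order cortex, olfactory bulb, brain stem, cerebellum, with means of 11.41 ± 0.09, 11.18 ± 0.14, 11.02 ± 0.11 and 10.77 ± 0.15 (SD, n = 3). No difference between neighbours in that order passed, and the cortex was 1.56-fold above the cerebellum (adjusted p = 6.79e-05).

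Taok3 was at 8.97, 9.06 and 8.98 in the cerebellum, and its means elsewhere were 8.66 ± 0.02 for cortex, 8.50 ± 0.08 for olfactory bulb and 8.46 ± 0.09 for brain stem (SD, n = 3). The cerebellum stood 1.27-fold above the cortex (adjusted p = 0.00206), and no difference among the other 3 regions passed. Map2k6 and Mapk14, which act one after the other in the p38 branch, were both higher in cerebellum and cortex than in olfactory bulb and brain stem. Map2k6 averaged 9.20 ± 0.02 and 9.15 ± 0.20 in cerebellum and cortex, 8.84 ± 0.10 for brain stem and 8.40 ± 0.13 for olfactory bulb (SD, n = 3). Mapk14 averaged 10.47 ± 0.05 and 10.45 ± 0.03 in cerebellum and cortex, 10.01 ± 0.20 for olfactory bulb and 9.89 ± 0.19 for brain stem. For both genes the difference between cortex and cerebellum did not pass (adjusted p = 0.741 for Map2k6 and 0.885 for Mapk14), and each was above the brain stem (adjusted p of 0.0175 or less).

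Map2k2 averaged 9.29 ± 0.17 in olfactory bulb, 9.27 ± 0.08 in brain stem, 9.04 ± 0.09 in cerebellum and 8.92 ± 0.12 in cortex (SD, n = 3). Olfactory bulb and brain stem each exceeded cortex (adjusted p = 0.00628 and 0.0119). The test over regions gave Map2k2 an adjusted p of 0.00718, which was 0.109 without +/+ mouse 2 and 0.0520 without +/+ mouse 3. Taok2 averaged 10.39 ± 0.10 for brain stem, 10.34 ± 0.07 for cortex, 10.25 ± 0.02 for cerebellum and 10.19 ± 0.40 for olfactory bulb, and no regional difference passed (adjusted p = 0.510). Taok1 (adjusted p = 0.159) and Map2k3 (adjusted p = 0.0716) did not pass either. Between pairs of regions, counted in either direction, 4 of 9 members passed for olfactory bulb against cortex, 5 for olfactory bulb against cerebellum, 2 for olfactory bulb against brain stem, 4 for cortex against cerebellum, 5 for cortex against brain stem and 3 for cerebellum against brain stem. The shares of all genes were 35.7%, 37.6%, 32.6%, 37.2%, 27.3% and 36.8% in that order.

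**Figure D5:**
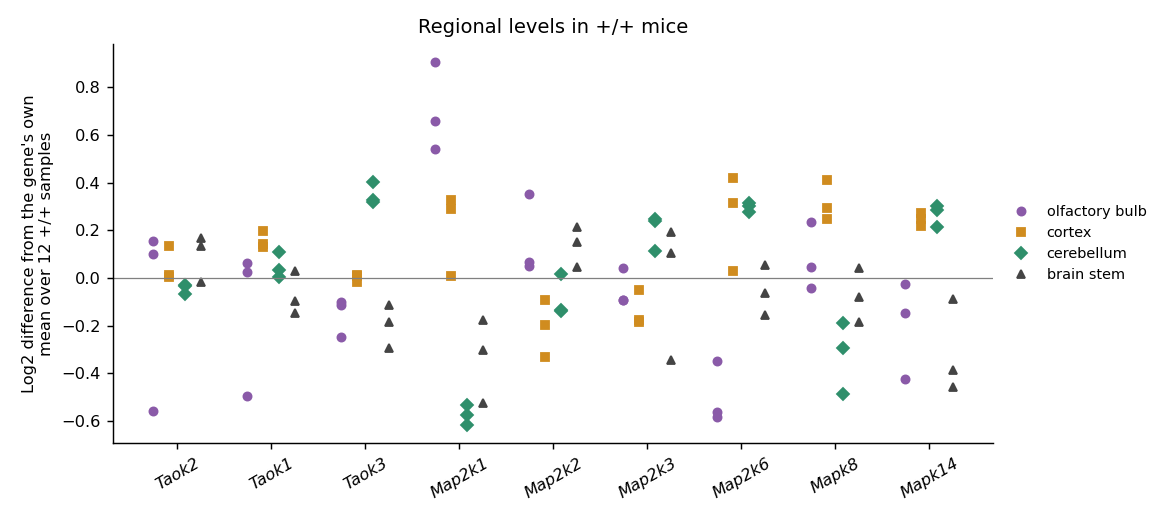
Log2 difference from the gene's own mean over 12 +/+ samples (y axis) for the 9 members (x axis), with 1 point per +/+ mouse in each region. Map2k1 is highest in the olfactory bulb and lowest in the cerebellum, Taok3 is highest in the cerebellum, and Map2k6 and Mapk14 are on average higher in cerebellum and cortex than in the other regions.

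Other genes of the MAP kinase network were taken from lists of upstream kinases, other MAP2K and MAP kinases, scaffolds, MAPK-activated kinases, phosphatases, transcription targets and partners of TAO kinases. Of 109 listed genes 100 were measured, and 0 had a slope past the threshold by limma, with 3 at an unadjusted p under 0.05, beside 0.11% of all genes passing. Their median slope was -0.0036, and that of all genes 0.015. In df/+ mice 0 of 100 passed, beside 0.115% of all genes, and in dp/+ mice 1 of 100 did, beside 1.86%. At an unadjusted p under 0.05 there were 8 of the 100 in df/+ mice and 14 in dp/+ mice, where 6.75% and 23.7% of all genes were. The 8 in df/+ mice were 4 of 17 early-response and feedback genes of the ERK branch and 4 of 11 JNK and p38 targets. The median df/+ differences of these lists were -0.11 and -0.075, against -0.013 for all genes. In dp/+ mice they held 3 and 2 such genes, with medians of -0.12 and -0.020. The lists were not tested as sets. The gene that passed in dp/+ mice was Gadd45b, a stress-response gene. It fell by 0.23 ± 0.05 on the log2 scale there (limma adjusted p = 0.0464), and its df/+ difference was -0.23 (adjusted p = 0.426). It is named because it passed.

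The genes with the smallest p of the slope in each list had slopes between -0.21 and 0.17, where that of Taok2 was 0.78. Among early-response and feedback genes of the ERK branch, where 0 of 17 passed, the transcription factor Egr1 had a slope of 0.17 ± 0.05 (limma adjusted p = 0.697) and the feedback inhibitor Spry4 one of -0.21 ± 0.08 (adjusted p = 0.697). Among 11 MAP kinase phosphatases 0 passed, and Dusp6, which acts on ERK, had a slope of -0.15 ± 0.07 and Dusp4 one of -0.18 ± 0.09 (adjusted p = 0.717 each). Of the 11 JNK and p38 targets 0 passed, and the AP-1 subunits Jun and Jund had slopes of 0.12 ± 0.06 and -0.07 ± 0.04. Of 2 further MAP2K genes measured, Map2k5 had a slope of -0.10 ± 0.04 and Map2k4, a JNK activator, one of -0.07 ± 0.04. The other lists also had 0 genes past the threshold: 21 MAP3K and Raf kinases (Map3k20 at 0.07 and Mos at 0.06), 10 other MAP kinases (Mapk10 and Mapk11 at -0.08 each), 5 MAP4K genes (Map4k4 at -0.03 and Mink1 at -0.04), 10 scaffolds (Mapk8ip2 at -0.05 and Tab2 at 0.06), 8 MAPK-activated kinases (Rps6ka3 at -0.09 and Mknk2 at -0.08) and 5 TAO kinase partners (Cdh2 at -0.04 and Sema3a at -0.06).

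Across the 31 region samples, the genes most correlated with Taok2 in log2 signal were Tbc1d10b (r = 0.975), Cd2bp2 (0.914), Cdipt (0.913), Ppp4c (0.891) and Tmem219 (0.879). After each region's mean was subtracted they were Tbc1d10b (r = 0.990), Sez6l2 (0.983), Maz (0.966), Tlcd3b (0.956) and Ppp4c (0.952). All are listed on chromosome 7, as Taok2 is, and their own slopes on log2 copies ran from 0.59 for Tlcd3b to 0.74 for Ppp4c. The points share mice and arrays, so these are descriptions. The other 8 members had region-centred correlations with Taok2 from -0.35 for Map2k2 to 0.38 for Mapk14.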

How the data were processed

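Total RNA of 31 region samples from 8 mice was measured on 37 arrays. The deposited values are log2 signals of 35556 probe sets. Per the submitters' processing notes, they came from Affymetrix Expression Console and RMA, whose versions are not given. The logarithm's base is not stated, and the range of the values was taken to mean base 2. Hybridisation batches are not given in the sources used here. Arrays of 1 sample were averaged. Probe sets with 1 symbol were kept (21789), and the one with the highest mean stood for each of 19938 genes. Tests used limma 3.58.1 in R 4.3.3 over all genes, with Benjamini-Hochberg adjustment and a threshold of 0.05, after tests on simulated data. Brain-wide tests used 1 value per mouse, without a replicate block. Regional tests used all samples and treated mouse as a random block (consensus correlation 0.15). Nothing in the labels ties equal replicate numbers to a shared litter or day, and same-numbered mice correlated from -0.38 to 0.17. Genes named were the members, up to 2 genes per list with the smallest p of the slope, and the measured cortex, endothelium and brain stem markers. The 5 genes most correlated with Taok2 by each of 2 measures were named too. The members, lists and named-gene rule were chosen with earlier results of these data known. As a check of dissection, 17 of 18 regional markers had their highest +/+ mean in the region they mark. Levels are not compared between genes, and the number of mice limits the precision. Promoter windows are RefSeq's on GRCm38.p6, matched by symbol for all 9 members. Alternatives were other normalisations, priors, weights, filters and left-out mice or regions. Regional contrasts of genotypes and the removal of 1 olfactory bulb sample were added after the data were seen.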

Additional observations from a re-analysis of the deposited data

Results flagged for a closer look

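The df/+ samples of Map2k6 lay on opposite sides of the +/+ samples in different regions, though neither regional difference passed. In the olfactory bulb it was at 8.58 and 8.71 in df/+ mice, against 8.31, 8.55 and 8.33 in +/+ mice, a log2 difference of 0.25 (limma adjusted p = 0.359), with both df/+ samples above all +/+ samples. In the cerebellum it was at 9.06 and 8.90 in df/+ mice, against 9.20, 9.21 and 9.17 in +/+ mice, a log2 difference of -0.22 (limma adjusted p = 0.556), with both df/+ samples below all +/+ samples. The limma F test of the df/+ differences between regions gave an unadjusted p of 0.0114 and an adjusted p of 0.404, so the difference between regions did not pass.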

How the results depend on the processing

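The brain-wide and regional slopes of Taok2, its brain-wide df/+ and dp/+ differences and its slope minus that of each other member kept their direction and call in all alternatives run, with a brain-wide slope of 0.60 to 0.79 (lowest per copy instead of per log2 copy), a df/+ difference of -0.85 to -0.75 and a dp/+ difference of 0.37 to 0.49. With a replicate block the slope of Taok2 was 0.76 (adjusted p = 0.000223) and its dp/+ difference 0.44 (adjusted p = 0.0385), and the block changed no call of a member in the brain-wide tests, the regional slopes of Taok2 or the test between slopes. It was not run for the regional genotype contrasts or the levels between +/+ regions. The count of members that passed in dp/+ mice was 2 instead of 1 with array weights, which added Mapk8, and the adjusted p of Map2k3 between regions was 0.0192 with the first array of each sample. The step difference of Taok2 was -0.067 with cyclic loess, -0.056 with quantile normalisation within regions and -0.076 to 0.21 without 1 mouse. Other changes of sign were in values that passed nowhere, and the cause was not tested. With cyclic loess these were Taok1 in dp/+ mice (0.00484) and Taok3 in df/+ (0.017) and dp/+ mice (0.000330). With quantile normalisation within regions the same values were 0.0018, 0.028 and 0.017. With array weights they were Map2k3 in df/+ mice (-0.0069) and the slope of Taok3 (0.012), with the first array of each sample Taok1 in dp/+ mice (0.0020), without the cortex Map2k2 (-0.038) and Map2k3 (-0.057) in df/+ mice, and with the replicate block Taok3 in df/+ mice (0.0010). Without 1 mouse, the df/+ differences ran from -0.013 to 0.076 for Map2k2, -0.048 to 0.073 for Map2k3, -0.075 to 0.021 for Map2k6 and -0.065 to 0.046 for Taok3. The dp/+ differences ran from -0.12 to 0.0017 for Mapk14 and -0.13 to 0.039 for Taok1, and the slope of Taok3 from -0.049 to 0.014. With 2 or 3 mice per genotype, small differences of the chain kinases could not be resolved.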
